A study of Mus musculus with 4 samples.

Results

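The genes described are the 7 core transducers of the Hedgehog signal: Ptch1, Hhip and Smo at the cell surface, the GLI inhibitor Sufu, and the transcription factors Gli1, Gli2 and Gli3. They were taken by symbol from the count table, and all 7 had a row among its 24907 genes. RNA-seq libraries came from ASZ001, an established mouse basal cell carcinoma (BCC) line, and all cells received doxycycline. The c-FOS cells carried a doxycycline-inducible c-FOS vector (2 libraries), and the control cells carried the same kind of vector without an insert (2 libraries). By the series title, the wider study concerns how basal cell carcinoma turns into squamous cell carcinoma. The line is known to come from a tumour of a mouse heterozygous for Ptch1. The labels do not give its Ptch1 alleles, and the counts do not separate transcripts of different alleles.

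In the Hedgehog pathway, PTCH1 keeps the membrane protein SMO inactive until a Hedgehog ligand binds PTCH1. Active SMO, at the primary cilium, lets GLI proteins escape SUFU and enter the nucleus, where GLI2 is mainly an activator, GLI3 is mainly a repressor after proteolytic processing, and GLI1 is an activator whose gene is itself a target of the pathway. Most BCCs carry lesions that keep this pathway on, and Gli1, Ptch1 and Hhip transcripts are common readouts of its activity.

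Library totals were 29200592 and 32465409 counts in the c-FOS libraries, against 28405433 and 29822437.5 counts in the control libraries. Fos, the vector's gene, was at 296.8 and 313.3 CPM (deposited counts per 1000000 of the TMM-scaled library total) in the c-FOS libraries and at 0.403 and 0.351 CPM in the control libraries, as the labels say. Cells with the c-FOS vector were not sequenced without doxycycline, so induced c-FOS and other differences between the kinds of cell cannot be told apart. Whether the libraries of a group stem from separate cultures is not in the labels. The p-values thus speak only of the spread among these 4 samples, and that spread may be technical. Of 8 basal keratinocyte markers fixed as a check of the cell type, all were expressed. Their summed level was 12760 and 13280 CPM in the c-FOS libraries and 26200 and 26170 CPM in the control libraries, and 7 fell while Itga6 rose. Summed levels of 9 fibroblast markers were 18.2 and 19.6 CPM in the c-FOS libraries against 8.67 and 8.91 CPM in the control libraries. Of the 5 tested, Pdgfra, Pdgfrb and Col1a2 rose, Fbln1 fell and Col1a1 did not pass. Pdgfrb had 75.5 and 82 counts with c-FOS and 0 in both control libraries, so it entered the test through the c-FOS libraries only. Pdgfra was at 11.3 and 11.9 CPM with c-FOS against 4.24 and 4.23 CPM in control. Col1a2 was at 2.98 and 3.91 CPM with c-FOS against 0.471 and 0.607 CPM in control. Fbln1 was at 0.575 and 0.420 CPM with c-FOS against 3.28 and 3.26 CPM in control. Dcn, which was not tested, had 4 and 3.5 counts with c-FOS against 8.5 and 18.5 counts in control. Thy1 was at 0 counts in all libraries and Col3a1 and Lum at 1 count or fewer. Summed levels of 8 leukocyte markers were 41.5 and 45.0 CPM with c-FOS against 18.9 and 17.0 CPM in control. The 3 tested, Csf1r, Cd68 and Cd14, all rose. Csf1r was at 18.4 and 18.4 CPM with c-FOS against 0.387 and 0.224 CPM in control (log2 fold change 5.87 ± 0.17, SE; adjusted p = 6.06e-12, edgeR), and Cd68 and Cd14 had log2 fold changes of 0.37 and 0.68. Csf1r had 11.5 and 7 counts in control, so it entered the test through the c-FOS libraries. Cd3e was at 0 in all libraries and Ptprc at 2.5 counts or fewer. The 4 endothelial markers summed to 102.9 and 102.2 CPM with c-FOS against 83.7 and 80.3 CPM in control, almost all of it Pecam1. Pecam1 and Tek, the 2 tested, rose (log2 fold changes 0.31 and 1.38), and Kdr was at 0 in all libraries. The 5 melanocyte markers summed to 48.5 and 51.2 CPM with c-FOS against 49.4 and 51.7 CPM in control, almost all of it Mitf. Neither Mitf nor Pmel, the 2 tested, passed, and Tyr and Mlana were at 0 in all libraries. The part of these markers in the results for the Hedgehog genes was not tested. In these bulk samples, fewer cells of a type and less RNA per cell cannot be told apart.

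In c-FOS cells, Gli1 fell to 14.5% of its control level, Gli2 to 51.3%, Sufu to 67.3%, Smo to 76.7% and Ptch1 to 77.7%, whereas Gli3 rose to 120.9%. Thus 5 of the 6 tested genes fell and 1 rose, and Hhip had no counts. Such calls rest on the quasi-likelihood test of edgeR, with Benjamini-Hochberg adjustment over 12780 tested genes at 0.05. Over all tested genes the same test called 33.4% lower and 33.8% higher in c-FOS cells, 67.2% in all. A call is therefore common in this comparison, and a call alone does not set a Hedgehog gene apart. The share of called genes that were higher was 50.4%, and 35.4% when library totals replaced the trimmed-mean (TMM) factors. That scaling moved the median log2 fold change over all tested genes to -0.14, against -0.01 with TMM. Each of the 6 genes kept its direction and its call under every scaling tried. The groups of 2 libraries did not overlap for any of the 6 genes, against 83.6% of all tested genes.

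**Figure D1:**
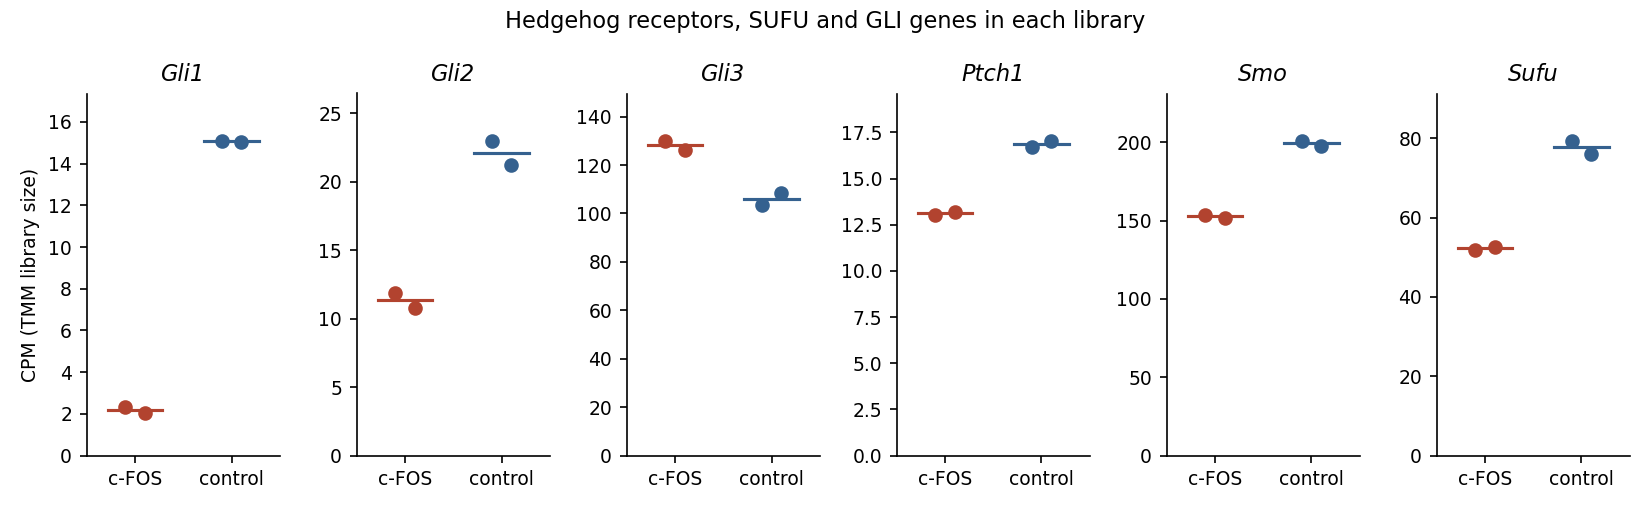
CPM of the 6 tested Hedgehog genes in each library (points) with the group mean (line), c-FOS left and control right, each panel with its own axis from 0. Gli1 sits at 2.03 to 2.34 CPM with c-FOS against 15.02 to 15.09 CPM in control, and Gli3 alone is higher with c-FOS.

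Promoter sequences are shown for Gli2 and Gli3, sister genes of which the first fell and the second rose, and for Hhip. Hhip had no counts, and its window held the single motif match found. RefSeq promoters on GRCm38.p6, from 250 bases before to 50 after the annotated start, were matched for 6 of the 7 genes, and Gli1 had no entry. This build is not the mm9 build of the counts and serves for sequence only. The strings searched on both strands were the GLI consensus GACCACCCA, the AP-1 element TGANTCA, to which FOS and JUN dimers bind, and the cAMP response element (CRE) TGACGTCA, none of which holds another. They occur in 0.253%, 7.81% and 1.79% of the 32851 promoters in the table. Capitals mark a match, and all else is in lower case, 5′ to 3′ on the gene's strand.
Gli2 promoter, chr1:119053570-119053869, minus strand: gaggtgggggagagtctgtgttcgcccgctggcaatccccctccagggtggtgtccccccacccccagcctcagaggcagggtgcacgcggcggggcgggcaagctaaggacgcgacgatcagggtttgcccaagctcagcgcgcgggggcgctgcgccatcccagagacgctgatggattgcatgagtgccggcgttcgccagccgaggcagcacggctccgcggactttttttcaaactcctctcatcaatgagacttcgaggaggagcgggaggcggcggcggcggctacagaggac
Gli3 promoter, chr13:15463473-15463772, plus strand: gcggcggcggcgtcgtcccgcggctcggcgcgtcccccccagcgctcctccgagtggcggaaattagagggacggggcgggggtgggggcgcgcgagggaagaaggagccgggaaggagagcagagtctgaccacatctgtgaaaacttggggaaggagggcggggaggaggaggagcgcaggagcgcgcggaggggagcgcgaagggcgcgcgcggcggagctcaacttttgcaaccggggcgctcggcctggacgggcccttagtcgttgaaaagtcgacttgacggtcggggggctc
Hhip promoter, chr8:80057959-80058258, minus strand: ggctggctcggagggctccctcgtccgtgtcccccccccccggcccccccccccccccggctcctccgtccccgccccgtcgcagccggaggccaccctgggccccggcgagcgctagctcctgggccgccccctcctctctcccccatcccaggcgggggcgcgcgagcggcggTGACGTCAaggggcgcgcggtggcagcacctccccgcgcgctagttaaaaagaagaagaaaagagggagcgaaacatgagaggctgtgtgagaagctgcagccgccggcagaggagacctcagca

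No GLI or AP-1 string lay in the windows of Gli2, Gli3, Ptch1, Smo, Sufu or Hhip. That says only that these letters are not in these windows, and draws nothing about the factors, which also act from distant sites. The Hhip window held the CRE string once, starting 75 bases before the start site. The windows of the members were rich in G and C, from 56.3% for Sufu to 76.3% for Ptch1, where the median of all promoters was 52.7%. They held between 12 CpG dinucleotides (Sufu) and 47 (Ptch1), against a median of 7 over all promoters. Gli2 had 28, Gli3 had 39 and Hhip had 30.

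Gli1, the activator and target of the pathway, had the lowest fold change of the 6 tested genes. It was at 2.34 and 2.03 CPM in the c-FOS libraries, against 15.09 and 15.02 CPM in the control libraries. These values rest on 65 and 63 counts with c-FOS and on 449 and 470.5 counts in control. Both c-FOS libraries lay far below both control libraries. The means were 2.18 ± 0.214 CPM and 15.1 ± 0.0502 CPM (SD, n = 2 each). The log2 fold change was -2.79 ± 0.12 (SE; adjusted p = 2e-10, edgeR). Of the 12780 tested genes, 77 had a lower fold change (0.603%). In the GENCODE M21 annotation (GRCm38), exons of Gli1 overlap those of Arhgap9 and Gm47200, both on the opposite strand. Gm47200, an antisense gene, has no row in the table, so its level is not known. How the counting treated strand is not stated in the sources, so reads in the overlaps cannot be assigned to any of these genes. Arhgap9 itself had 4 and 11.5 counts with c-FOS and 2 and 7.5 counts in control, too few for it to be tested.

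Gli2, the main activator of the pathway, was at 11.9 and 10.8 CPM in the c-FOS libraries and at 23.0 and 21.2 CPM in the control libraries. The groups stood apart by more than the spread within either. The means were 11.3 ± 0.791 CPM and 22.1 ± 1.24 CPM (SD, n = 2 each), a log2 fold change of -0.96 ± 0.09 (SE; adjusted p = 3.94e-07, edgeR). Lower fold changes than that of Gli2 were found for 1049 of the tested genes (8.21%).

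Gli3, the main source of GLI repressor, went the other way. It was at 130.0 and 126.2 CPM in the c-FOS libraries, against 103.5 and 108.4 CPM in the control libraries. Both c-FOS libraries were above both control libraries, with means of 128.1 ± 2.71 CPM and 105.9 ± 3.50 CPM (SD, n = 2 each). The log2 fold change was 0.27 ± 0.04 (SE; adjusted p = 6.14e-05, edgeR), and 0.14 (adjusted p = 0.0101, edgeR) with library totals, where the median of all genes was -0.14. Over the alternatives run, the adjusted p of Gli3 lay between 8.91e-14 and 0.0101. A GENCODE transcript without a row in the table, Gm6556, also overlaps exons of Gli3 on the opposite strand. RNA levels do not tell how much GLI3 protein is processed to its repressor form.

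**Figure D2:**
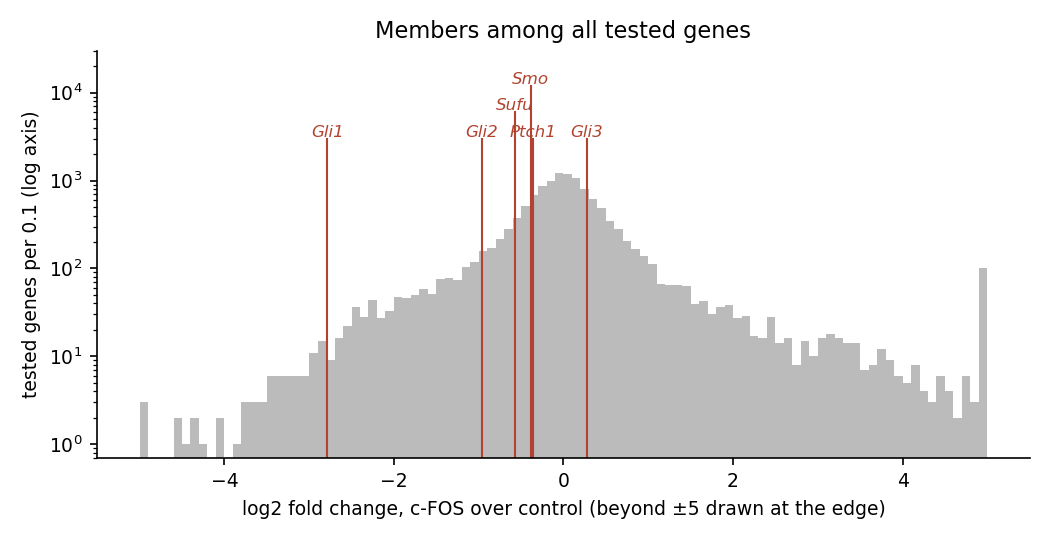
Distribution of the log2 fold change (c-FOS over control) over the 12780 tested genes in bins of 0.1, with a log axis of gene counts and red lines at the 6 tested Hedgehog genes. Gli1 lies in the far lower tail at -2.79, Gli2 at -0.96, and the others within 0.57 of 0.

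Because the GLI factors read the same DNA motif, their transcripts were also set beside each other per length, as CPM per kilobase of the deposited gene model. The summed level of the 3 GLI genes was 17.9 and 17.2 CPM per kb in the c-FOS libraries and 19.9 and 20.2 CPM per kb in the control libraries. Gli3 made up 86.5% and 87.4% of that sum with c-FOS, against 61.9% and 63.9% in control. Gli2 made up 9.94% and 9.38% with c-FOS, against 17.3% and 15.7% in control. Gli1 made up 3.58% and 3.25% with c-FOS, against 20.8% and 20.4% in control. The make-up of the pool therefore differed more between the groups than its sum.

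**Figure D3:**
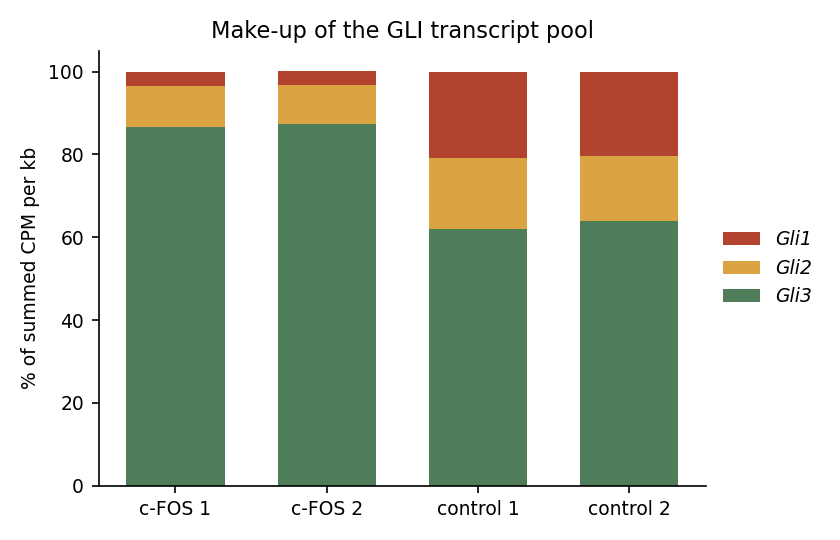
Share of Gli1, Gli2 and Gli3 in their summed CPM per kb in each library, as stacked bars from 0 to 100%. Gli3 takes 86.5% and 87.4% in the c-FOS libraries and 61.9% and 63.9% in the control libraries, and Gli1 shrinks to 3.58% and 3.25% with c-FOS.

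Ratios within a library do not depend on the scaling between libraries. The per-length ratio of Gli1 to Gli3 was 0.0393 ± 0.00303 with c-FOS and 0.328 ± 0.0119 in control (SD, n = 2 each), a log2 difference of -3.06. The ratio of Gli2 to Gli3 was 0.111 ± 0.0054 with c-FOS and 0.262 ± 0.0234 in control (log2 difference -1.24). Gli1 was 0.353 ± 0.0101 of Gli2 with c-FOS but 1.25 ± 0.0664 of it in control (log2 difference -1.83). Gli1 and Ptch1, both targets of GLI activity, also differed, with a ratio of 0.33 ± 0.0351 with c-FOS and 1.78 ± 0.0315 in control (log2 difference -2.42). The ratio of Sufu to the summed GLI genes was 0.662 ± 0.0257 with c-FOS and 0.861 ± 0.0345 in control (log2 difference -0.38). For none of these 5 ratios did the libraries of the groups overlap. A two-sided exact permutation test gave p = 0.33 for each, also after adjustment over the 5, which is the smallest p that 2 against 2 libraries allow.

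At the membrane, Ptch1, which encodes the receptor that restrains SMO, was at 13.0 and 13.2 CPM in the c-FOS libraries and at 16.7 and 17.1 CPM in the control libraries. The libraries of a group were close together and the groups were apart, with means of 13.1 ± 0.0963 CPM and 16.9 ± 0.243 CPM (SD, n = 2 each). The log2 fold change was -0.36 ± 0.08 (SE; adjusted p = 0.00123, edgeR). Over the alternatives, the adjusted p of Ptch1 lay between 8.33e-05 and 0.0151. Of the tested genes, 23% had a lower fold change than Ptch1.

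Smo, which encodes the G protein-coupled receptor-like activator of the pathway, had the highest level of the 7 genes. It was at 153.6 and 151.9 CPM in the c-FOS libraries, against 201.0 and 197.5 CPM in the control libraries. Both c-FOS libraries were lower, with means of 152.7 ± 1.18 CPM and 199.2 ± 2.42 CPM (SD, n = 2 each) and a log2 fold change of -0.38 ± 0.04 (SE; adjusted p = 8.51e-07, edgeR).

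Sufu, which encodes the cytoplasmic inhibitor that binds all GLI proteins, was at 51.9 and 52.7 CPM in the c-FOS libraries and at 79.4 and 76.2 CPM in the control libraries. Its groups did not overlap either, with means of 52.3 ± 0.540 CPM and 77.8 ± 2.28 CPM (SD, n = 2 each). The log2 fold change was -0.57 ± 0.05 (SE; adjusted p = 1.23e-07, edgeR). An inhibitor of the pathway and its activator Smo were thus both lower in c-FOS cells.

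Hhip, which encodes a membrane-bound decoy for Hedgehog ligands and is a target of GLI activity, had 0 counts in all 4 libraries and did not enter the test. A count of 0 allows up to 3 counts, or 0.108 and 0.0968 CPM in the c-FOS libraries and 0.101 and 0.0958 CPM in the control libraries. These limits cover counting error only. No difference in Hhip was detectable at this depth.

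**Figure D4:**
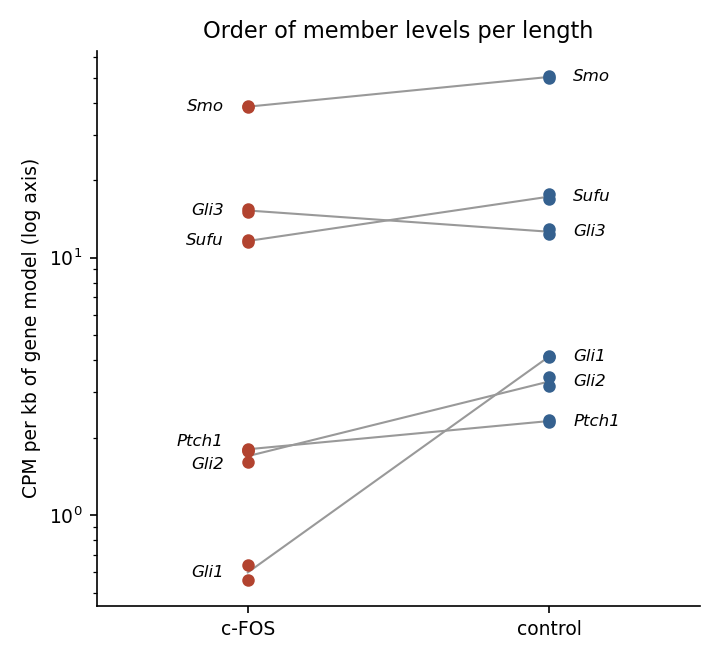
CPM per kb of gene model on a log axis for the 6 detected genes, c-FOS left and control right, with a point per library and a line between the group means. Gli1 goes below Gli2 and Ptch1 with c-FOS, and Gli3 stands above Sufu with c-FOS and below it in control.

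The order of the per-length levels differed between the groups. With c-FOS it ran from Smo (38.5 ± 0.298 CPM per kb) through Gli3 (15.2 ± 0.322), Sufu (11.6 ± 0.12), Ptch1 (1.80 ± 0.0132) and Gli2 (1.69 ± 0.118) to Gli1 (0.599 ± 0.0588; SD, n = 2). In control it ran from Smo (50.3 ± 0.612 CPM per kb) through Sufu (17.2 ± 0.504), Gli3 (12.6 ± 0.416), Gli1 (4.13 ± 0.0138) and Gli2 (3.30 ± 0.186) to Ptch1 (2.32 ± 0.0333; SD, n = 2). Gli1 thus stood last of the detected genes with c-FOS, and above Gli2 and Ptch1 in control. The gap between Ptch1 and Gli2 with c-FOS, 0.108 CPM per kb, was smaller than the larger of their SDs (0.118). Each other pair of neighbours in either order was further apart than the larger of its SDs.

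Across the 4 libraries, the 3 tested genes nearest to Gli1 in pattern were Icosl, Pif1 and Abcc3. Nearness was the Euclidean distance between log2 CPM profiles, each centred on its own mean. Icosl, which encodes a ligand of the T-cell costimulator ICOS, lay at a distance of 0.068 and had means of 2.61 CPM with c-FOS and 17.4 CPM in control. Pif1, which encodes a DNA helicase, lay at 0.0822 and Abcc3, which encodes a multidrug transporter, at 0.0941. Abcc3 was low, with means of 0.0682 CPM with c-FOS and 0.853 CPM in control. Its log2 fold change was -3.57, and the prior count of 2 in the profiles shrinks the change of so low a gene. In all, 3 genes lay within 0.1 of Gli1 and 26 within 0.1 of Gli2, for which Acpp (0.0496), 2310015A10Rik (0.0544) and Faap100 (0.0579) were nearest. The small changes of the other members were shared by many genes, with 684 within 0.1 of Gli3, 540 of Ptch1, 533 of Smo and 240 of Sufu. The nearest were Zfp955a, Clptm1l and Lsg1 for Gli3, Mepce, Phb2 and Ppp4r3a for Ptch1, Zfp46, Itgb4 and Nfkb1 for Smo, and Zfp629, Cox8a and Slc25a39 for Sufu. With 2 libraries in each group, nearness mostly ranks genes by the size of their fold change.

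The rest of the pathway was counted in 5 lists of 73 genes with a row, of which 57 were tested. A fall was called for 27 and a rise for 19, and 11 did not pass. By direction, 33.4% of all tested genes fell and 33.8% rose. The median log2 fold change of the 57 was -0.15, against -0.01 over all tested genes. The share called, 80.7%, stood beside 67.2% of all tested genes.

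Ligands were at or near 0. Shh, Ihh and Dhh, the genes of the 3 mammalian Hedgehog ligands, had at most 2 counts, 5 counts and 1 count in any library. Of the 9 genes of ligands and ligand release, 2 were tested and both fell, where 33.4% of all tested genes fell. Scube3, a member of the family that helps release ligand, had 0.126 and 0.210 CPM with c-FOS and 0.975 and 1.47 CPM in control (log2 fold change -2.82 ± 0.41, SE; adjusted p = 4.22e-05, edgeR). Scube3 had 3.5 and 6.5 counts with c-FOS and 29 and 46 counts in control, so it entered the test through the control libraries only. A call for a gene that enters through its higher group is favoured beforehand. Hhat, the ligand palmitoyltransferase, had a log2 fold change of -0.22 (adjusted p = 0.026, edgeR). Its call was lost in DESeq2 (adjusted p = 0.17), without c-FOS replicate 1 (adjusted p = 0.131, edgeR) and without c-FOS replicate 2 (adjusted p = 0.121, edgeR). Over all alternatives it lay between 0.00135 and 0.17.

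All 3 tested co-receptor genes fell, where 33.4% of all tested genes fell. Gas1, the membrane-anchored co-receptor, was at 36.2 and 32.7 CPM in the c-FOS libraries and at 284.7 and 261.5 CPM in the control libraries (log2 fold change -2.99 ± 0.06, SE; adjusted p = 1.03e-13, edgeR). Boc and Cdon, immunoglobulin-family co-receptors, had log2 fold changes of -0.67 ± 0.06 and -0.40 ± 0.04 (SE). Lrp2, the megalin receptor gene, had at most 1 count in any library.

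Of 17 genes of SMO signalling and trafficking in the cilium, 6 rose, 4 fell and 7 did not pass. Over all tested genes, 33.8% rose and 33.4% fell, so these counts alone do not set the list apart. The median log2 fold change of the list was 0.00. With library totals 3 rose and 8 fell, and without c-FOS replicate 2 the number that fell was 2. Arrb1, which encodes a beta-arrestin, was at 1.82 and 2.03 CPM with c-FOS against 0.151 and 0.239 CPM in control (log2 fold change 3.26 ± 0.34, SE; adjusted p = 1.78e-06, edgeR). Arrb1 had 4.5 and 7.5 counts in control, so it entered the test through the c-FOS libraries only. Tulp3, which carries receptors into cilia, was at 221.4 and 220.8 CPM with c-FOS against 366.3 and 348.9 CPM in control (log2 fold change -0.69).

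Of 22 genes of GLI kinases, GLI degradation and nuclear partners, 11 rose, 8 fell and 3 did not pass. The shares over all tested genes were 33.8% higher and 33.4% lower. The median log2 fold change of the list was 0.13. With library totals 4 rose. Glis2, a zinc finger gene related to the GLI genes, was at 59.2 and 61.1 CPM with c-FOS against 22.3 and 23.8 CPM in control (log2 fold change 1.38 ± 0.06, SE; adjusted p = 1.77e-10, edgeR). Zic1, another relative, was low, with 2 and 2.5 counts with c-FOS against 11 and 17 counts in control (log2 fold change -2.68 ± 0.60, SE; adjusted p = 0.00139, edgeR). Zic1 entered the test through the control libraries only, where it was higher. The most abundant genes of the list moved little. Prkar1a, a regulatory subunit of protein kinase A, which marks GLI proteins for processing, had a log2 fold change of 0.19, but 0.05 (adjusted p = 0.216, edgeR) with library totals, within a range of 1.69e-09 to 0.216 over the alternatives. Csnk1a1, which encodes casein kinase 1 alpha, had -0.15, a call that was lost without c-FOS replicate 2 (adjusted p = 0.0665, edgeR; 1.75e-07 to 0.0665 over the alternatives).

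Among genes listed as GLI targets other than the 7, a fall was called for 10 of 13 tested, a rise for 2, and 1 did not pass. A fall was called for 33.4% of all tested genes and a rise for 33.8%. The median log2 fold change of the list was -0.74. Foxl1, a forkhead gene, was at 1.96 and 1.92 CPM with c-FOS against 7.70 and 8.45 CPM in control (log2 fold change -2.06 ± 0.14, SE; adjusted p = 2.56e-08, edgeR). Sfrp1, a secreted Wnt antagonist, was at 60.6 and 58.0 CPM with c-FOS against 192.3 and 186.7 CPM in control (log2 fold change -1.68 ± 0.04, SE). Osr2, a zinc finger gene, had a log2 fold change of -2.14 ± 0.19 (SE). Foxm1 and Stil, which also serve cell division, had log2 fold changes of -2.08 ± 0.06 and -1.32 ± 0.10 (SE). Sox9, a progenitor factor of the hair follicle, had -0.50 and the cyclin gene Ccnd2 had -0.15, and the call for Ccnd2 was lost without c-FOS replicate 2 (adjusted p = 0.0942, edgeR; 8.78e-10 to 0.0942 over the alternatives). The cyclin gene Ccnd1 went the other way, at 382.2 and 381.8 CPM with c-FOS against 133.4 and 142.5 CPM in control (log2 fold change 1.47 ± 0.04, SE; adjusted p = 3.17e-12, edgeR). Rab34, a small GTPase gene of cilium formation, was the other that rose (log2 fold change 0.19), but its call was lost with library totals (adjusted p = 0.305, edgeR) and without c-FOS replicate 2 (adjusted p = 0.0588, edgeR), within a range of 3.84e-07 to 0.305 over the alternatives. It was named after its values were seen. Several of these genes answer to other pathways too, and GLI activity was not measured.

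**Figure D5:**
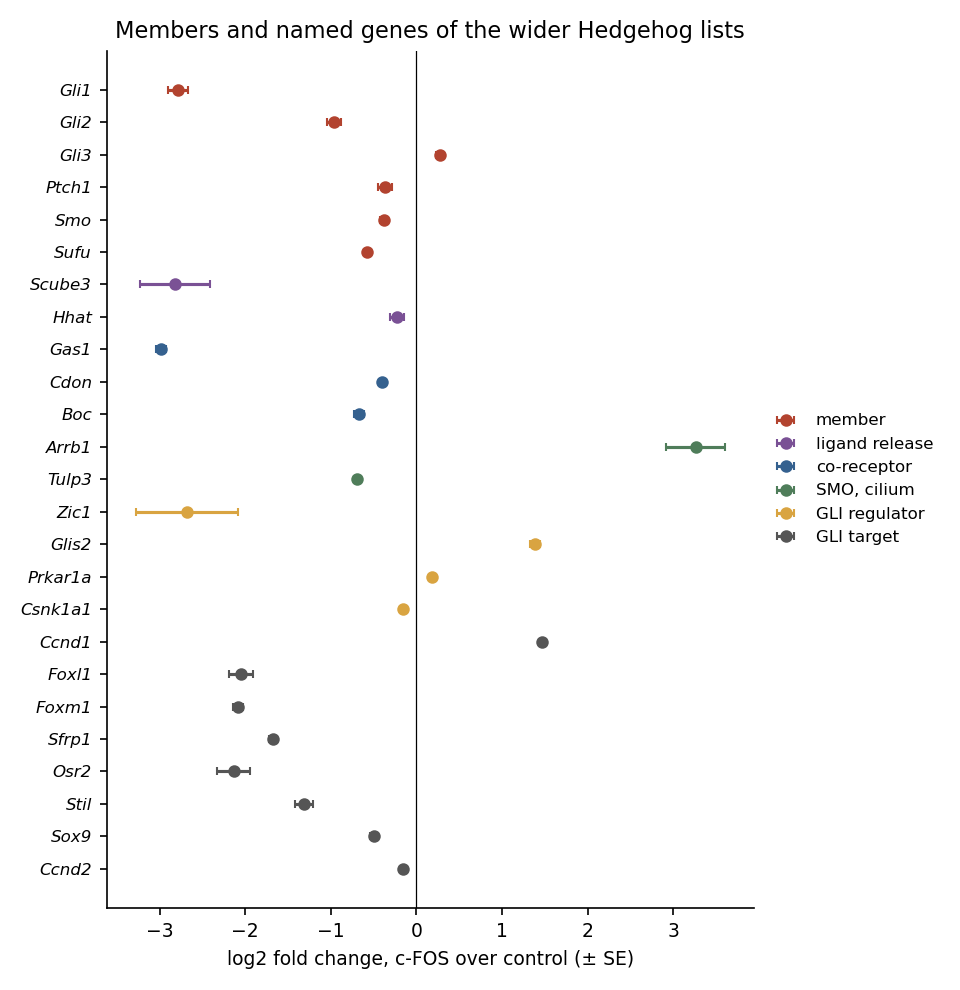
Log2 fold change (c-FOS over control) with SE for the 6 tested Hedgehog genes and named genes of the 5 wider lists, coloured by list. Of the tested wider-list genes in the text, Rab34, Grk2 and Prkaca are not drawn. Gas1 (-2.99), Scube3 (-2.82), Gli1 (-2.79) and Zic1 (-2.68) lie at the low end, and Arrb1 (3.26), Ccnd1 (1.47) and Glis2 (1.38) at the high end. Scube3, Zic1 and Arrb1 entered the test only through the group where they were higher, which favours a large change beforehand.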

How the data were processed

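The data are 4 RNA-seq libraries of ASZ001 cells, grouped by their titles. Per the series design text, the reads went through TopHat and then HOMER. DESeq2 and genome build mm9 are named in the submitters' processing notes. For versions, annotation and strand setting, nothing is stated in the sources.

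The authors deposited unnormalized expected counts per gene symbol, in steps of 0.5 (48% of values above 0 are not whole), and a gene model length in bases. The table had 24909 rows. For 2 symbols with a second row, the row of higher total was kept. Counts were rounded to whole numbers (values ending in 0.5 to the even neighbour) and tested with edgeR 4.0.16 (R 4.3.3): filterByExpr (minimum count 10, minimum total 15), TMM factors (0.953 and 0.954 for c-FOS, 1.05 and 1.05 for control), the quasi-likelihood test without covariates, two-sided, and Benjamini-Hochberg adjustment at 0.05. CPM use unrounded counts and the effective library size. Profiles for nearness used a prior count of 2. SE come from the F statistic. The common biological coefficient of variation was 3.38%. Replicates differed by more than sampling noise (chi-square per degree of freedom 1.94 with c-FOS and 4.83 in control) and were kept apart. The script was tested on simulated data.

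The 7 genes and the lists were chosen with earlier results of these data known. Named besides the 7 and Fos were wider-list genes that passed with an absolute log2 fold change of at least 1, up to 2 others of highest mean CPM per list, and the 3 nearest profiles of each tested gene. A gene that this rule names is not reported here. Older symbols were resolved through RefSeq synonyms. Other named genes were chosen after their values were seen. Alternatives were RLE, upper-quartile and total-count scaling, no filter, a stricter filter (minimum count 50), DESeq2 1.42.0, a replicate block, values ending in 0.5 rounded down, and leaving out each library.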

Additional observations from a re-analysis of the deposited data

How the results depend on the processing

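The log2 fold changes of Gli1, Gli2, Gli3, Ptch1, Smo and Sufu kept their direction and stayed past the threshold under all 12 alternatives. Their ranges were -2.92 to -2.68 for Gli1, -1.10 to -0.89 for Gli2, 0.14 to 0.31 for Gli3, -0.50 to -0.35 for Ptch1, -0.52 to -0.37 for Smo and -0.71 to -0.54 for Sufu. The 5 ratios kept their direction when each library was left out in turn. Scaling cannot change a ratio within a library, so library totals are no check of them. Hhip entered no fit. With 2 libraries a group, the spread of a single gene is poorly known.

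The same replicate numbers were not shown to pair the libraries: the difference between replicates 1 and 2 correlated at -0.064 across genes between the groups. With the replicate block, 8453 genes were called, against 8589 without it, Gli1 was at -2.79, and no call among the 6 genes or the 57 tested genes of the wider lists changed.

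Library totals changed the most. The share of called genes that were higher was 35.4%, and the median over tested genes was -0.143 (RLE factors -0.001, upper-quartile factors -0.069, DESeq2 0, no filter 0.009; -0.01 to 0.001 without a library). In the list of GLI kinases, degradation and partners 4 genes rose and the median was -0.007 (0.067 with upper-quartile factors, 0.122 to 0.153 without a library). Of SMO and cilium genes 3 rose and 8 fell, with a median of -0.133. Of GLI targets 1 rose. The co-receptor median was -0.81 (-0.736 with upper-quartile factors). Levels per length with library totals were 4.33 (Gli1, control), 14.53 and 13.21 (Gli3, c-FOS and control), 1.718 and 2.432 (Ptch1), 36.75 and 52.73 (Smo), and 11.06 and 18.08 CPM per kb (Sufu), in the same order of genes. Grk2 was at 0.01 and did not pass, but passed as lower (-0.123) with library totals, and Prkaca, which rose by 0.11, was at -0.026 there and did not pass.

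In DESeq2, 1 ligand-release gene and 2 SMO and cilium genes fell. With the stricter filter 1 ligand-release gene fell and the median of that list was -0.229, and with no filter 1 rose and the median was 1.028, since fewer and more of its genes were tested. Leaving out a library gave 1 to 2 ligand-release genes fallen, 2 to 4 SMO and cilium genes fallen, 1 to 2 GLI targets risen and a GLI target median of -0.881 to -0.532. Of the 46 called wider-list genes, 29 kept their call under every alternative that tested them, and 3 of the 11 that did not pass passed under none. The cause of the other changes was not tested.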

Other observations

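Each GLI gene lies beside an inhibin beta gene among protein-coding genes in RefSeq's GRCm38.p6 order: Gli1 beside Inhbe, Gli2 beside Inhbb and Gli3 beside Inhba. These genes encode subunits of the TGF-beta family ligands called activins and inhibins. They were named after the neighbours and their values were seen. Inhba, the neighbour of Gli3, was at 1905 and 1848 CPM in the c-FOS libraries, against 175.2 and 193.8 CPM in the control libraries. The libraries of the groups did not overlap, and the log2 fold change was 3.35 ± 0.05 (SE; adjusted p = 1.2e-14, edgeR's quasi-likelihood test), where that of Gli3 was 0.27. Inhbb, the neighbour of Gli2, was at 174.8 and 178.9 CPM with c-FOS against 288.3 and 259.1 CPM in control, a log2 fold change of -0.63 ± 0.05 (SE; adjusted p = 7.94e-08 in the same test), where that of Gli2 was -0.96. Inhbe had 0 counts in all 4 libraries. Whether the neighbours are linked in these cells was not tested.

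Values for neighbours of other members were as follows. Trim8 and Actr1a, on the sides of Sufu, had log2 fold changes of 0.01 and 0.07 that did not pass (edgeR, adjusted p = 0.818 and 0.107), where Sufu fell by 0.57. Of the genes beside Ptch1, the Fanconi anaemia gene Fancc fell by 0.65 and Ercc6l2 had -0.10, which did not pass. Of the genes beside Smo, which fell by 0.38, Ahcyl2 fell by 0.52 and Tspan33 had 0.46, which did not pass (edgeR, adjusted p = 0.189).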
